A study of Mus musculus with 3 samples.

Results

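The proteasome is the barrel-shaped protease that degrades proteins marked with chains of ubiquitin. The genes described here encode its constitutive subunits and the enzymes that attach ubiquitin to proteins or take it off again. They were chosen by name: every gene on the array whose name in 1 scanner file begins with Psma, Psmb, Psmc, Psmd, Ube2, Ube3, Ube4, Uba, Usp or Uch, apart from the 5 excluded genes Psmb8, Psmb9, Psmb10, Psme1 and Ube2c. The rule took 66 genes with 90 probes, of 17582 features tested and 20371 probes on the array that are not controls. It reads names only, but the members were chosen with earlier results of these data known. Of the 66 genes, 46 had 1 probe, 16 had 2 and 4 had 3, and every one entered the test.

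RNA came from mouse ovarian surface epithelial cells, the cell layer that covers the ovary, taken from C57/Bl6 females that were superovulated with pregnant mare's serum gonadotropin and hCG and mated, and grown without antibiotics. From each of 3 separate cultures, one portion stayed epithelial in medium with 2.5% fetal bovine serum, while the other spent 1 week in 15% serum and became mesenchymal. Cells were harvested at 80% confluence, and 4 µg of total RNA was amplified for each labelling. Both parts of a culture were hybridised against each other on 2 Agilent arrays with the Cy3 and Cy5 dyes exchanged, giving 6 arrays. The study asked how transcription differs before and after this epithelial to mesenchymal transition. Because the higher serum was itself the treatment, its effect and that of the new phenotype cannot be told apart, and the labels do not say how many animals a culture came from. Each value is a log2 ratio with mesenchymal RNA over epithelial RNA. Means are given ± SD across cultures (n = 3 unless stated), and a gene is said to have risen or fallen only where limma's Benjamini-Hochberg adjusted p over all features was under 0.05. With 3 cultures, and 2 for some genes, the number of cultures limits the precision.

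The 26S proteasome joins a 20S core, built of alpha subunits (Psma genes) and proteolytic or structural beta subunits (Psmb genes), to a 19S regulator, whose ATPases (Psmc genes) unfold the substrate and whose non-ATPase subunits (Psmd genes) bind and strip ubiquitin. Ubiquitin reaches a substrate through an activating E1 enzyme, a conjugating E2 enzyme (mostly Ube2 genes) and an E3 ligase, and an E4 enzyme can lengthen the chain. Ubiquitin-specific proteases (Usp genes) and C-terminal hydrolases (Uch genes) remove it. The transcription factor Nfe2l1 is known to drive proteasome genes through antioxidant response elements when proteasome activity falls short.

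That element has the core TGACNNNGC, and it was searched on both strands, the other strand reading GCNNNGTCA, in RefSeq promoters of 300 bases, from 250 bases before to 50 after a transcription start (GRCm38.p6). A promoter was listed for 51 of the 66 genes. The core occurred in 12.4% of all 32851 promoters in the table and, by gene, in 14.0% of 27025 genes. It occurred in 12 of the 51 listed members (23.5%), in 3 of 23 proteasome genes (13.0%) and in 9 of 28 other members (32.1%). The proteasome genes were Psmb5 and Psmb6, with the core near the start, and Psmd12, with it at base -247. Each of the 3 members that fell, Ube2j1, Usp2 and Usp25, had the core in a listed promoter. Among the 7 that rose, 5 had a listed promoter and 2 of these held it, Psmd12 and Ube2v1. A match is a match of letters and no evidence of binding. The stretches below run from 110 bases before to 10 after the start, with matches in capitals. They show the 2 core subunit genes with a match near the start, the proteasome subunit gene that rose most, and the 2 members that fell most, and were chosen after the values were seen.
Psmb5, chr14:54617986-54618105, minus strand: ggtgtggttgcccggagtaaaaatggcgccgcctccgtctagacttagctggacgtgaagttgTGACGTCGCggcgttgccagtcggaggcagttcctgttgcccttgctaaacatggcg
Psmb6, chr11:70525247-70525366, plus strand: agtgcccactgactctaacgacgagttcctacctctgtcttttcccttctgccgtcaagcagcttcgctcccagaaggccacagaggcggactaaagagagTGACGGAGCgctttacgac
Psmc1, chr12:100110092-100110211, plus strand: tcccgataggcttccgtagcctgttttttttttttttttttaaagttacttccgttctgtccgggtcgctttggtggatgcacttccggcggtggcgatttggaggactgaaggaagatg
Ube2j1, chr4:33031270-33031389, plus strand: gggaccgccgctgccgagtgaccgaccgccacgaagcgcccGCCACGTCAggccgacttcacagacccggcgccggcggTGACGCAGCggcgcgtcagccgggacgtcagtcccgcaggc
Usp2, chr9:44084810-44084929, plus strand: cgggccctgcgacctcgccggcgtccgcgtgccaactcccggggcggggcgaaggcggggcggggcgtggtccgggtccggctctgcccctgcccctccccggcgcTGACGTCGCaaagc
The first base of the core lies at -47 in Psmb5, at -9 in Psmb6, at -69 and -31 in Ube2j1 and at -4 in Usp2, counted from the start.

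Most of the 66 genes changed little between the epithelial and mesenchymal cells. In mesenchymal cells 7 rose, namely the 19S subunit genes Psmc1, Psmc3 and Psmd12, the 20S subunit gene Psma6, the E2 variant genes Ube2v1 and Ube2v2, and Psmc3ip. The 3 that fell were Usp2, Ube2j1 and Usp25. These 10 genes are 15.2% of the members, against 11.9% of all features that passed the same test (2088 of 17582, with 5.96% higher and 5.92% lower). Changes were small: mean ratios ran from -1.01 to 0.61, and only Usp2 reached 2-fold. The calls depended on which cultures entered: without culture 3 no member passed limma's test (0 of 65, with 16 at an unadjusted p under 0.05), and without culture 2 only Psmc1, Psmc3ip and Ube2j1 of the 10 did, while Usp2 could be tested in neither case. With a trended, robust variance in limma, Psmc1, Psmc3ip, Psma6, Ube2j1 and Usp2 passed and the other 5 did not.

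A few measures of the arrays and the cells stand beside these results. All 66 genes were brighter than the 95th percentile of the negative control spots, but so were 97.8% of all features. Of 10 measured markers of the ovarian surface and mesothelium, none rose and 8 fell in limma's test (0 higher and 9 lower at an unadjusted p under 0.05), among them Gpm6a (-2.98 ± 0.22), Msln (-2.07 ± 0.27) and Wt1 (-0.89 ± 0.10), so these defining markers were present and lower in mesenchymal cells. None of 6 leukocyte markers passed limma's test (0 at an unadjusted p under 0.05), and of 12 granulosa and theca markers Inhba alone did, falling by 0.88 ± 0.25. Of 6 endothelial markers Flt1 alone passed, with 0.56 ± 0.20. Among 16 proliferation genes Bub1 rose by 0.70 ± 0.21 and Birc5 by 0.62 ± 0.28, while Mki67 fell by 0.35 ± 0.08. These 3 calls are 18.8% of the list, against 11.9% of all features. At an unadjusted limma p under 0.05, 5 of the 16 were higher and 2 lower. Their median was 0.29 in culture 1, 0.02 in culture 2 and 0.004 in culture 3. The part of these markers in the members' changes was not tested. In RNA from a whole culture, fewer cells of a type and less RNA per cell cannot be told apart.

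The 29 proteasome genes, those named Psma to Psmd apart from the excluded ones, are 27 subunits and the assembly chaperones Psmd5 and Psmd10. The excluded Psmb8, which fell with -1.49 ± 0.31 (n = 2), is thus not counted among them. Of the 29, 4 rose and none fell (13.8% called, against 11.9% of all features). At an unadjusted limma p under 0.05, 11 were higher and 0 lower. Counts at an unadjusted p, here and elsewhere, have no share of all features beside them. They therefore do not show a difference from the array at large. Of the 27 subunits alone, 4 rose, and 9 were higher and 0 lower at an unadjusted limma p under 0.05, with a median ratio of 0.17. The median ratio of the 29 was 0.18, against -0.003 for all features, and 26 of the 29 means were above 0, against 49.1% of all features. The 26 include Psma3, at 0.0004, and Psmb6, at 0.00014 and saturated in mesenchymal RNA on all 6 arrays. Many of the means join opposed readings in the 2 dye orientations. With mesenchymal RNA in Cy5, Psma1 had -0.86 and Psmd13 0.83, and with it in Cy3 they had 1.49 and -0.17. Of the 29, 4 had 1 sign on all 6 arrays, against 12.0% of all such features. The count of means above 0 thus does not show a rise in both orientations. Taken culture by culture, the median of the 29 was 0.30 in culture 1, 0.12 in culture 2 and 0.06 in culture 3, where all features had medians of -0.001, -0.017 and 0.015. Culture 1 was thus the highest, and the SD of these 3 medians was 0.127. In all 3 cultures 15 of the 29 were above 0 and none was below, where 22.3% of all features measured in 3 cultures were above 0 in all and 22.3% below. No test of these genes as a set was made, and 16 of them were saturated on at least 1 array, which makes a ratio smaller. With saturated spots left out the median was 0.25, but that fit no longer held Psmb1, Psmb4, Psmb5, Psmb6, Psma4, Psma6 or Psmc2. Its median is thus over fewer genes and does not show by itself that ratios grew. Without culture 1 the median was 0.07.

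**Figure D1:**
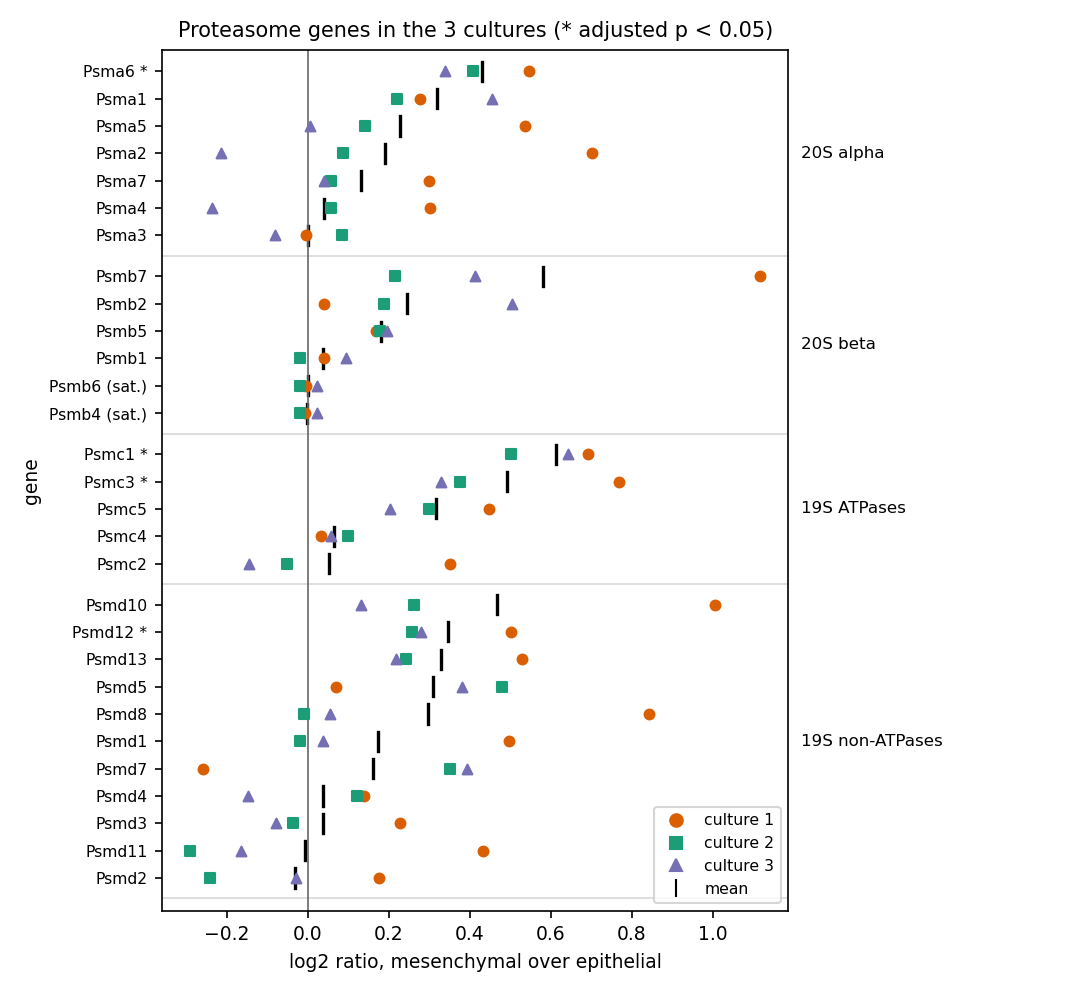
The plot of proteasome genes by culture gives each log2 ratio of mesenchymal over epithelial RNA (x axis) in culture 1 (circles), culture 2 (squares) and culture 3 (triangles), with the mean as a bar; a star marks the 4 genes that passed limma's threshold and "sat." the 2 genes saturated in mesenchymal RNA on all 6 arrays. Most means lie to the right of 0, and culture 1 gives the most distant point for Psmb7, Psmd10 and Psmd8. Many of the means join opposed readings in the dye orientations, which this plot does not show.

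The 19S ATPases form the ring that threads substrates into the core. Psmc1 (gene ID 19179, chromosome 12) had ratios of 0.69, 0.50 and 0.64 in cultures 1, 2 and 3. The 3 values lay close together and all were above 0, giving 0.61 ± 0.10, which is 1.53-fold (limma adjusted p = 0.00441, 95% confidence interval 0.43 to 0.79). Psmc3 (gene ID 19182, chromosome 2) had 0.77, 0.38 and 0.33, highest in culture 1, and a mean of 0.49 ± 0.24 (adjusted p = 0.0313). Psmc5 had 0.45, 0.30 and 0.20, and its mean of 0.32 ± 0.12 missed the threshold (adjusted p = 0.0526). That mean joins opposed readings, -0.33 with mesenchymal RNA in Cy5 and 0.96 with it in Cy3. Psmc4 (0.06 ± 0.03) and Psmc2 (0.05 ± 0.26) were near 0. In Psmc2 the 3 cultures differed in sign, with 0.35 in culture 1 and -0.05 and -0.15 in the others.

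Among the 11 19S non-ATPases, 1 rose (9.09%, against 11.9% of all features called). Psmd12 (gene ID 66997, chromosome 11), a scaffold subunit of the lid, had 0.50, 0.26 and 0.28 and a mean of 0.35 ± 0.14 (adjusted p = 0.0424). All 3 cultures were above 0, with culture 1 the highest, and the call ended with median centring (adjusted p = 0.0548). Psmd10, known as gankyrin and an assembly chaperone of the regulator rather than a part of it, had 1.00, 0.26 and 0.13. Its mean of 0.47 ± 0.47 was larger than that of Psmd12, but the spread between cultures was as large as the mean (adjusted p = 0.156). Psmd13 had 0.33 ± 0.17 (adjusted p = 0.0665), and Psmd5, another assembly chaperone, 0.31 ± 0.21 (adjusted p = 0.108). Psmd8 rested on culture 1 alone, with 0.84 there and -0.01 and 0.05 in the others. The large scaffold subunits Psmd1 and Psmd2, which bind ubiquitin-like domains and substrates, had 0.17 ± 0.28 and -0.03 ± 0.21. The means of the 3 probes of Psmd1 lay between 0.17 and 0.18, but the probes differed by culture. The brightest had 0.50, -0.02 and 0.04 in cultures 1, 2 and 3. The others had 0.05, 0.22 and 0.28, and -0.29, 0.42 and 0.42. The ubiquitin receptor Psmd4 had 0.04 ± 0.16 and the lid subunit Psmd11 -0.01 ± 0.39, with 0.43 in culture 1 against -0.29 and -0.16. For Psmd7 the order was the opposite, with -0.26 in culture 1 and 0.35 and 0.39 in cultures 2 and 3.

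In the 20S core, 1 of 13 subunit genes rose and none fell in limma's test (4 higher and 0 lower at an unadjusted p under 0.05), with a median of 0.18. The share called was 7.69%, against 11.9% of all features. Psma6 (gene ID 26443, chromosome 12), an alpha subunit, had 0.55, 0.41 and 0.34 and a mean of 0.43 ± 0.11 (adjusted p = 0.0167). All 3 cultures were on the same side, and mesenchymal RNA was saturated on 3 arrays, which can make the ratio smaller. Psma1 had 0.28, 0.22 and 0.45 with a mean of 0.32 ± 0.12 (adjusted p = 0.0512), short of the threshold, from opposed means of -0.86 and 1.49 in the 2 dye orientations. The means of the other 5 alpha subunits ran from 0.00 for Psma3 to 0.23 for Psma5. Psma2 and Psma4 spread across 0, with 0.70 and 0.30 in culture 1 and -0.21 and -0.24 in culture 3.

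Of the 6 beta subunits, none passed limma's threshold, and 2 were higher at an unadjusted p under 0.05. The trypsin-like catalytic subunit gene Psmb7 had the largest mean of the core, 0.58 ± 0.47, made of 1.12, 0.21 and 0.41 (adjusted p = 0.0877). It was above 0 on all 6 arrays, and culture 1 lay far above the others. Psmb7 passed with scanner log ratios (adjusted p = 0.0441), the authors' deposited table (0.0438), median centring (0.0250) and the random culture block (0.0378), and without culture 1 or culture 2. The chymotrypsin-like subunit gene Psmb5 had 0.17, 0.18 and 0.20, nearly equal in the 3 cultures, and a mean of 0.18 ± 0.01 (adjusted p = 0.163). That mean joins opposed readings, -0.03 with mesenchymal RNA in Cy5 and 0.39 with it in Cy3. The small SD is across cultures and leaves this difference out. Psmb2 had 0.04, 0.19 and 0.50 (adjusted p = 0.223) and Psmb1 a mean of 0.04 ± 0.06, with mesenchymal RNA saturated on 5 arrays. Psmb4 and Psmb6, the caspase-like subunit gene, were saturated in mesenchymal RNA on all 6 arrays and in epithelial RNA on 5, so their ratios near 0 say nothing about a change.

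**Figure D2:**
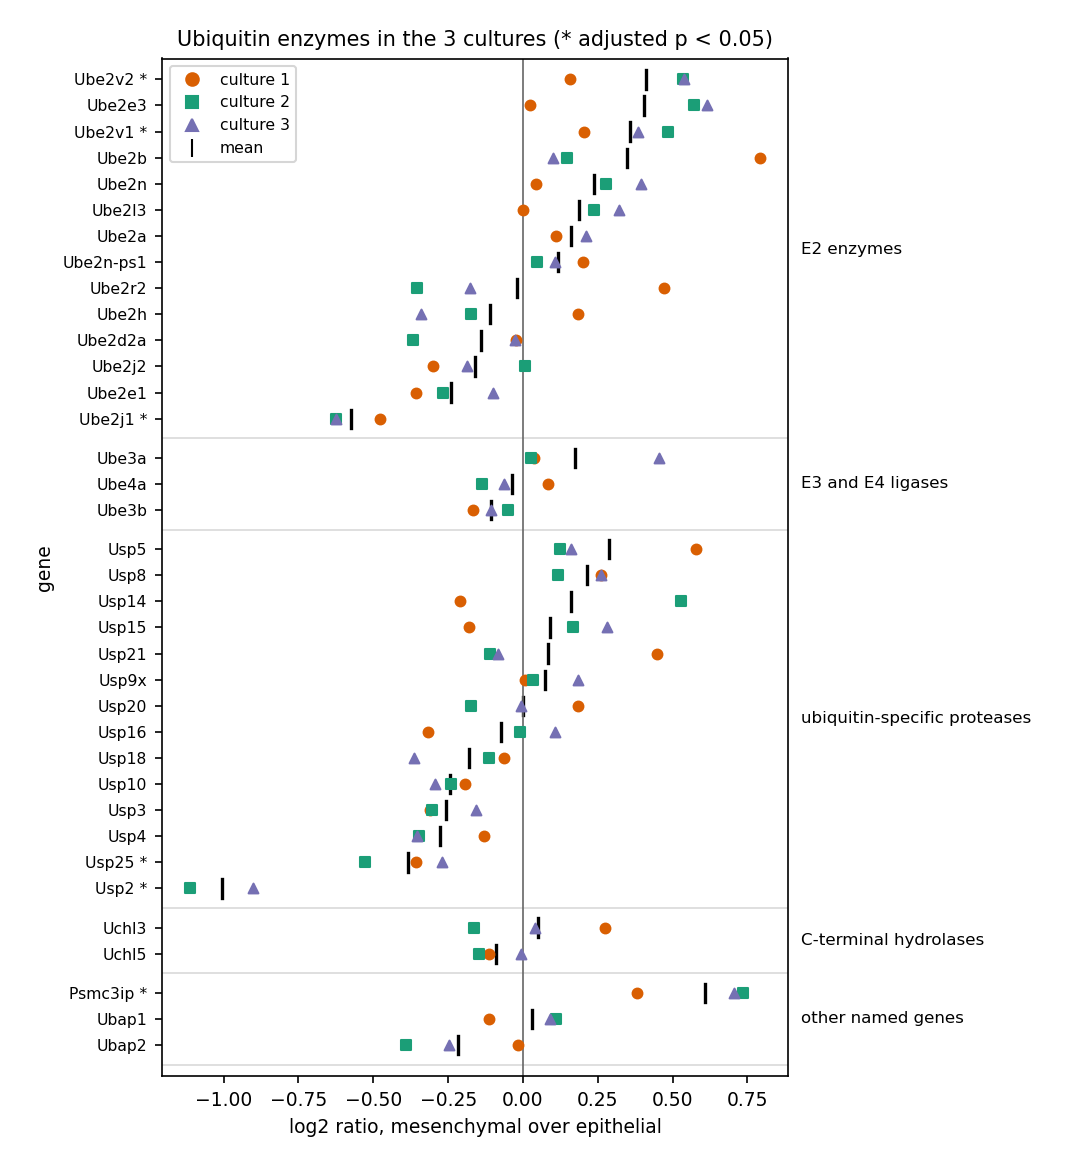
The plot of ubiquitin enzymes by culture gives the log2 ratio of mesenchymal over epithelial RNA (x axis) of the other members shown in each of the 3 cultures, with means as bars and stars for the 6 genes past limma's threshold; Usp2, Usp14 and Ube2a have 2 cultures each. The E2 genes run from -0.58 for Ube2j1 to 0.41 for Ube2v2, and the ubiquitin-specific proteases from -1.01 for Usp2 to 0.29 for Usp5.

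No E1 gene carried a name that the rule takes. Of the 14 E2 genes, 2 rose and 1 fell (21.4% called, against 11.9% of all features), with a median of 0.14. Ube2v2 and Ube2v1 encode E2-like proteins without a catalytic cysteine that pair with Ube2n to build ubiquitin chains used mainly in signalling and DNA repair. Ube2v2 (gene ID 70620, chromosome 16) had 0.16, 0.53 and 0.54, lowest in culture 1, with a mean of 0.41 ± 0.22 (adjusted p = 0.0477). The call ended in the fit of every probe (adjusted p = 0.0526) and in that of 6 arrays with a random culture block (0.0515). Ube2v1 (gene ID 66589, chromosome 2) had 0.20, 0.48 and 0.38, with a mean of 0.36 ± 0.14 (adjusted p = 0.0407), and the call ended with scanner log ratios (adjusted p = 0.0502) and median centring (0.0638). Both were lowest in culture 1, where the proteasome genes were highest. Their catalytic partner Ube2n had 0.24 ± 0.18 (adjusted p = 0.169) with 0.04 in culture 1 and 0.28 and 0.39 in the others, and its 3 probes ranged from -0.20 to 0.24.

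Ube2j1 (gene ID 56228, chromosome 4) encodes an E2 of the endoplasmic reticulum membrane that serves the degradation of misfolded secretory proteins. It had -0.48, -0.62 and -0.62, below 0 in every culture and on all 6 arrays, and fell by 0.58 ± 0.08 on the log2 scale, which is 1.49-fold lower in mesenchymal cells (adjusted p = 0.00498). A second, dimmer probe of Ube2j1 had a ratio of -0.05 and was not called, so the fall was seen with 1 of its 2 probes. Ube2j2, an E2 of the same membrane, had -0.16 ± 0.16 (adjusted p = 0.338).

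Other E2 genes did not pass. Ube2e3 had 0.02, 0.57 and 0.62, and its mean of 0.40 ± 0.33 carried an adjusted p of 0.110. Ube2e1, its close relative, had -0.24 ± 0.13 (adjusted p = 0.123). Ube2b, one of the Rad6 enzymes of DNA damage tolerance, had 0.79, 0.15 and 0.10 with its brighter probe, a mean of 0.35 ± 0.39, while its dimmer probe had 0.50, 0.49 and 0.60, a mean of 0.53 ± 0.06, and passed in the fit of every probe (adjusted p = 0.00684, 11.3% of 20185 probes called). Both probes were above 0 in every culture, and they differed in how far apart the cultures lay. Its partner gene Ube2a had 0.11 and 0.21 with its brighter probe in the 2 cultures measured, cultures 1 and 3. That probe had opposed means of -0.61 with mesenchymal RNA in Cy5 and 0.98 with it in Cy3. The dimmer probe of Ube2a, measured in every culture, had 0.03, -0.19 and 0.05. The pseudogene Ube2n-ps1, whose sequence is close to that of Ube2n, had 0.12 ± 0.08, and the signals of the 2 are uncertain where probes match both.

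None of the 3 ligase genes passed limma's test (0 at an unadjusted p under 0.05). Ube3a, the E3 ligase lost in Angelman syndrome, had 0.04, 0.03 and 0.45, so its mean of 0.17 ± 0.24 came mostly from culture 3 (adjusted p = 0.419). Ube3b had -0.11 ± 0.06 and the chain-lengthening enzyme gene Ube4a -0.04 ± 0.11.

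Of the 16 deubiquitinating enzyme genes none rose and 2 fell in limma's test (2 higher and 5 lower at an unadjusted p under 0.05), with a median of -0.04. The share called, 12.5%, was close to the 11.9% of all features. Usp2 (gene ID 53376, chromosome 9), whose product deubiquitinates cell-cycle regulators, had -1.11 in culture 2 and -0.90 in culture 3. Culture 1 had no ratio because 1 of its arrays was outlier-flagged for this probe, and the other gave -1.22. Usp2 fell by 1.01 ± 0.15 on the log2 scale (n = 2), which is 2.01-fold lower in mesenchymal cells and the largest change among the members (adjusted p = 0.00434). Usp25 (gene ID 30940, chromosome 16), an enzyme with roles in innate signalling and protein quality control, had -0.36, -0.53 and -0.27 and fell by 0.39 ± 0.13 (adjusted p = 0.0286). Both genes were below 0 on every array measured.

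A further 4 Usp genes were below 0 in all 3 cultures without passing. Usp4 had -0.13, -0.35 and -0.35 (adjusted p = 0.0810). Usp3 had -0.31, -0.31 and -0.16 (adjusted p = 0.0793), and Usp10, listed on the array as Uchrp, had -0.19, -0.24 and -0.29 (adjusted p = 0.0801). These 3 genes had like means, from -0.28 to -0.24. Usp18, which removes the ubiquitin-like protein ISG15, had -0.07, -0.11 and -0.36, a smaller mean of -0.18 ± 0.16 (adjusted p = 0.282). On the other side, Usp5, which recycles unanchored ubiquitin chains, had 0.58, 0.12 and 0.16 (adjusted p = 0.166), and Usp8, which acts on endosomal cargo, 0.26, 0.12 and 0.26 (adjusted p = 0.131). The deubiquitinating enzymes that dock on the proteasome were not called. Usp14 had -0.21 and 0.53 in its 2 cultures, on opposite sides of 0, and Uchl5 had -0.09 ± 0.07 (adjusted p = 0.565). Uchl3 had 0.05 ± 0.22.

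The rule also took 4 genes that share a name with these families and not their function. Psmc3ip (gene ID 19183, chromosome 11), a meiotic recombination factor named for its binding to Psmc3, had 0.38, 0.73 and 0.70 and a mean of 0.61 ± 0.20, which is 1.52-fold (adjusted p = 0.0103). Its second probe had 0.45, 0.41 and 0.40 and also passed in the fit of every probe (adjusted p = 0.0134). Ubap1, an endosomal sorting subunit gene, had 0.03 ± 0.12 and Ubap2 had -0.22 ± 0.19 (adjusted p = 0.220).

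**Figure D3:**
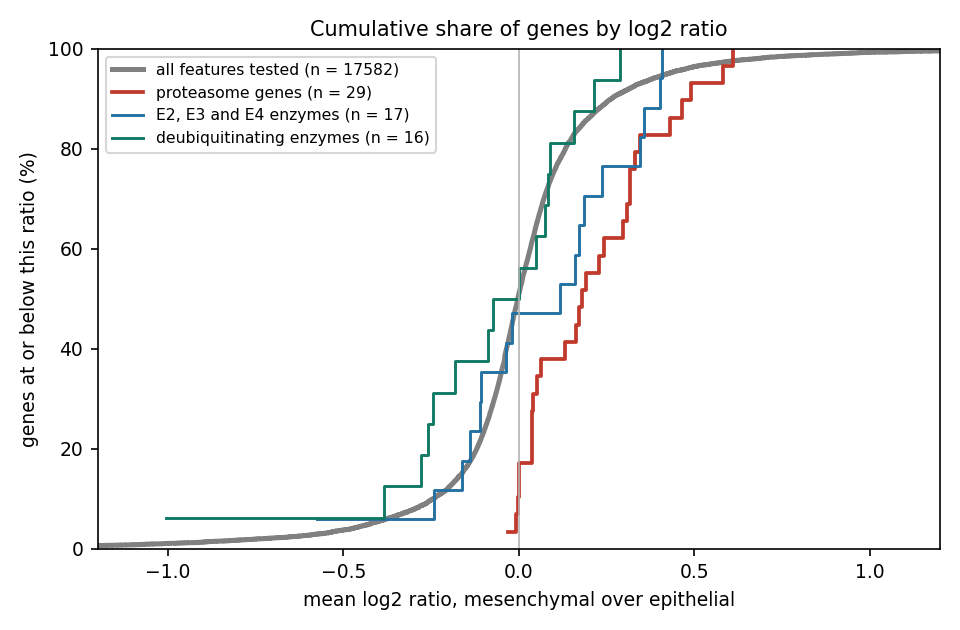
The cumulative plot gives the share of genes (y axis, percent) at or below each mean log2 ratio of mesenchymal over epithelial RNA (x axis) for all 17582 features, 29 proteasome genes, 17 E2, E3 and E4 enzyme genes and 16 deubiquitinating enzyme genes; the most extreme features lie beyond the axis. The curve of the proteasome genes begins at -0.03 and lies to the right of that of all features until its upper end near 0.61, while that of the deubiquitinating enzymes lies to the left of it at negative ratios.

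The dye itself moved the signal of most members. A dye effect, the log2 ratio of Cy5 over Cy3 with the 2 RNAs averaged out, passed limma's test for 45 of the 66 genes, against 57.1% of all features. In 45 of the 66 (68.2%) it was larger in size than the change between the cells, about the share among all features (70.2%). The largest was that of Usp15, at -2.34, beside a change of 0.09 ± 0.24. Psmd7 had -1.36, Ube2e1 -1.36 and Uchl5 -1.24. Averaging the 2 arrays of a culture cancels such an effect where it is equal on both.

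**Figure D4:**
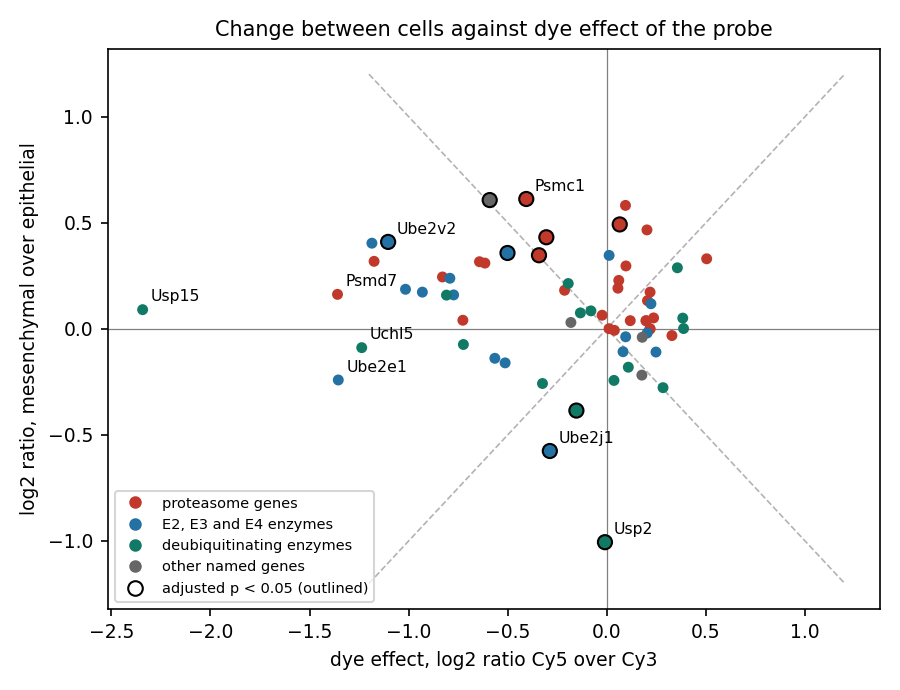
The plot of change against dye effect sets each member's mean log2 ratio of mesenchymal over epithelial RNA (y axis) against its log2 ratio of Cy5 over Cy3 (x axis), coloured by class, with outlined points for genes past the threshold for the change and dashed lines where both are equal in size. Points between the dashed lines and the x axis, 45 of 66, have a dye effect larger than their change, where 70.2% of all features do; Usp2 lies on the vertical axis with a dye effect of -0.01.

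Array by array, the calls differed in how far they stood above the dye. Of the 63 members measured on all arrays, 8 had 1 sign on all 6, against 12.0% of all such features: Psmc1, Psmc3, Psma6, Psmb7, Ube2b, Ube2j1, Usp25 and Usp10. Psmc3 had 0.93, 0.44 and 0.31 with mesenchymal RNA in Cy5 and 0.61, 0.32 and 0.35 with it in Cy3. The orientations overlapped, and its dye effect was 0.07. Psmc1 had 0.57, 0.04 and 0.00 with mesenchymal RNA in Cy5 and 0.81, 0.96 and 1.28 in Cy3, so the orientations did not overlap and its change came mainly from the second. Ube2v2 had opposite signs, with -0.69, -0.66 and -0.73 in the first orientation and 1.00, 1.72 and 1.81 in the second. Ube2v1 likewise had -0.11, -0.08 and -0.25 against 0.51, 1.05 and 1.01. The rises of Ube2v1 and Ube2v2 are therefore means of opposed readings. Psmd12 was below 0 on 2 of 6 arrays and Psmc3ip on 1. With mesenchymal RNA in Cy5, Psmd12 had a mean of 0.004 and Psmc3ip a mean of 0.016. With it in Cy3 their means were 0.689 and 1.198, so both rises came almost wholly from that orientation. Psma6 was also uneven, with a mean of 0.126 with mesenchymal RNA in Cy5 and 0.737 with it in Cy3. For Usp2 the 5 arrays measured ran from -1.22 to -0.87 with no separation by dye.

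**Figure D5:**
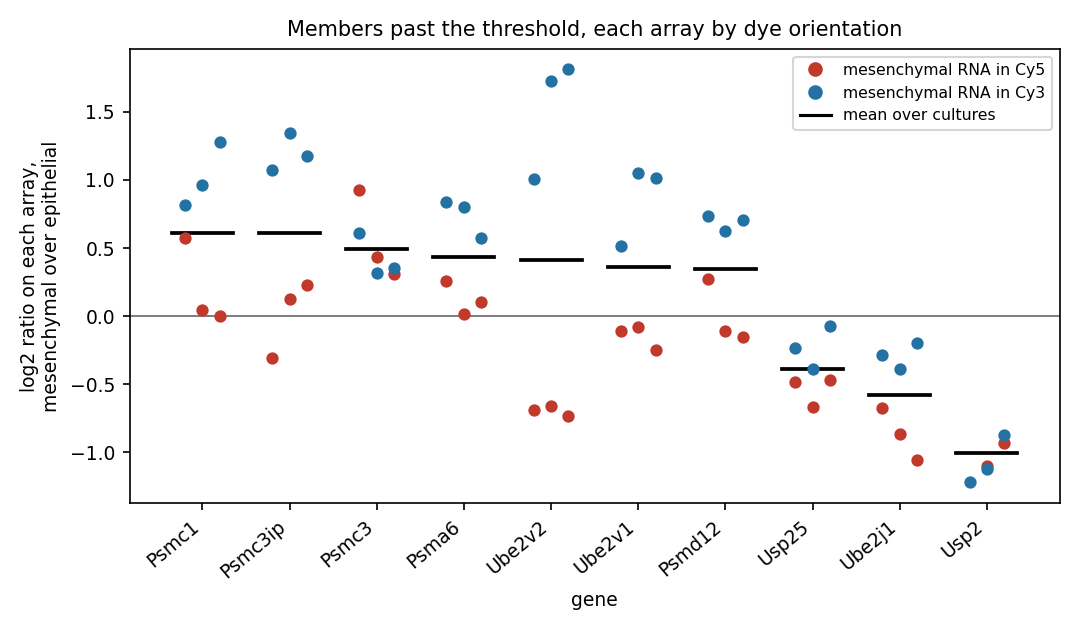
The plot of called members by array gives the log2 ratio of mesenchymal over epithelial RNA (y axis) on each array for the 10 genes past the threshold, in red with mesenchymal RNA in Cy5 and in blue with it in Cy3, with cultures side by side from 1 to 3 and a bar for the mean over cultures. The colours overlap for Psmc3 and Usp2 and lie on opposite sides of 0 for Ube2v1 and Ube2v2; the lone culture 1 point of Usp2, at -1.22, did not enter its mean.

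The cultures did not resemble one another equally. Across the 63 members measured in all cultures, the ratios of cultures 2 and 3 had a Pearson correlation of 0.85, against 0.40 for cultures 1 and 2 and 0.31 for cultures 1 and 3. Over 15477 features the same values were 0.89, 0.62 and 0.65. For the 29 proteasome genes alone they were 0.76, 0.20 and 0.13. These correlations are across genes, which are not independent replicates and share an array. Without culture 1, 32 members passed (20 higher and 12 lower), all 10 of the calls among them, but that fit rests on 2 cultures that lie close together, and 5154 of all features then passed.

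The array also holds genes of these families that the rule missed because the files list them under older names. This set was added after the names in the files were seen. Of 51 such genes 4 rose and 3 fell (13.7%), with a median of -0.01. The 19S subunit genes Psmd14, which encodes the deubiquitinating enzyme within the lid, and Psmc6, an ATPase, rose by 0.56 ± 0.08 (adjusted p = 0.00517) and 0.30 ± 0.09 (adjusted p = 0.0468), with all 3 cultures above 0 in each. Both were above 0 on 3 arrays and below on 3, with dye effects of -1.80 and -0.62 that exceed the changes. The others that rose were Ube2t, the E2 of the Fanconi anaemia pathway, with 0.48 ± 0.18, and Usp12 with 0.41 ± 0.14, which was above 0 on all 6 arrays. Among those that fell, Usp53 fell by 0.95 ± 0.47 and Usp1, which acts in the Fanconi pathway with Ube2t, by 0.42 ± 0.17. Ube2t, Usp53 and Usp1 were each above 0 on 3 arrays and below on 3.

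Of the excluded genes, Psmb8, which encodes an immunoproteasome subunit that can replace Psmb5, had -1.71 in culture 1 and -1.27 in culture 2 and fell by 1.49 ± 0.31 (n = 2, adjusted p = 0.003). Its constitutive counterpart Psmb5 had 0.18 ± 0.01, from opposed readings in the 2 dye orientations. Psmb10, the counterpart of Psmb7, had -0.13 ± 0.29 (adjusted p = 0.633), Psme1 -0.01 ± 0.13 and Ube2c 0.23 ± 0.08 (adjusted p = 0.110). In the list of 12 proteasome caps, assembly factors and immunoproteasome genes, Pomp, the chaperone that matures the core, rose by 0.61 ± 0.26 (adjusted p = 0.0182) with 0.31, 0.71 and 0.80, and Psmb8 was the only one to fall. Psme2 had 0.25 ± 0.17 (adjusted p = 0.135).

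Of 9 measured transcription factors and partners tied to proteasome genes, none rose and 1 fell (11.1%; 1 higher and 1 lower at an unadjusted limma p under 0.05). Nfe2l1 had -0.66, -0.44 and -0.55, below 0 in every culture, and fell by 0.55 ± 0.11 (adjusted p = 0.00706). Its relative Nfe2l2 had 0.21, -0.03 and 0.15, a mean of 0.11 ± 0.12 (adjusted p = 0.516).

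Elsewhere in the pathway, calls went both ways. Among 11 ubiquitin and ubiquitin-like genes Ubl3 rose by 1.10 ± 0.12, while Isg15 fell by 0.70 ± 0.11. Of 23 cullin and SCF ligase genes 2 rose, Cul7 (0.78 ± 0.20) and Cand2 (0.47 ± 0.05), and the neddylation factor gene Dcun1d1 fell by 0.34 ± 0.13. Of 9 genes of the anaphase-promoting complex, Anapc2 rose by 0.59 ± 0.35 and Anapc1 fell by 0.39 ± 0.16. The list of 31 HECT, RING and U-box ligase genes had the most falls of these pathway lists, 5 against 2 rises, with a median of -0.15. It was also the largest of them. Its median was -0.25 in culture 1, -0.02 in culture 2 and -0.03 in culture 3. Its largest falls were those of Ubr2, an E3 of the N-degron pathway, by 0.82 ± 0.10, Birc2, an inhibitor of apoptosis, by 0.62 ± 0.12, and Siah2, by 0.59 ± 0.06.

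Among 18 other deubiquitinase genes the COP9 signalosome protease gene Cops5 rose by 0.38 ± 0.07, while Tnfaip3 and Cyld, which both restrain NF-kappaB signalling, fell by 0.48 ± 0.02 (n = 2) and 0.40 ± 0.09. Of 16 genes of the segregase p97, shuttle factors and ubiquitin receptors none fell and 2 rose (3 lower and 5 higher at an unadjusted limma p under 0.05), the autophagy receptor gene Optn by 1.17 ± 0.23 and the deacetylase gene Hdac6 by 0.37 ± 0.17. Of 14 heat-shock chaperone genes Dnajb4 alone passed, with 0.77 ± 0.13. The share called in these lists ran from 7.14% of the chaperones to 22.6% of the HECT, RING and U-box ligase genes, against 11.9% of all features.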

How the data were processed

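Per the file headers, Agilent Feature Extraction A.7.1.1 wrote the scanner tables. Their mean-signal and background intensities are, per the file headers, linear and as scanned, and their log10 ratios of Cy5 over Cy3 come from background-subtracted signals with lowess dye normalisation. The log10 ratios in the authors' deposited table equal, to within 0.000566 for 99% of probes, the average of both arrays of a culture once turned the same way, with medians of 0.00397, -0.0123 and -0.00379. The submitters' processing notes name limma without a version. Dye orientation came from the names of the deposited arrays.

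Here the intensities were background-corrected by normexp (offset 50) and loess-normalised within arrays, giving controls no weight (limma 3.58.1, R 4.3.3). Log2 ratios were turned to mesenchymal over epithelial and averaged over the dye-swapped pair of each culture, both being required. Outlier-flagged spots were left out and saturated ones kept. Probes had to be well above background for 1 RNA on at least 4 of 6 arrays, and features needed 2 cultures. The brightest probe stood for a gene, which was named through its gene ID in a RefSeq table (GRCm38.p6). Ratios were tested against 0 with lmFit and eBayes, with Benjamini-Hochberg adjustment over all features. The steps were tested on simulated data. Pairing came from the design, since both RNAs of a culture share each array.

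The members and lists were chosen with earlier results of these data known. Named in full are called members, the 2 brightest of each class, the largest uncalled one, and up to 3 called genes per list. Other members are named with their means, and some genes that these rules take are not reported here. The alternatives tried changed background correction, normalisation, filters, the probe rule, spots, the variance model, dye orientation, cultures and thresholds. The culture 3 array that carried mesenchymal RNA in Cy3 had 1639 outlier-flagged probes, and the other 5 had 61 to 467.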

Additional observations from a re-analysis of the deposited data

How the results depend on the processing

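The count of 10 called members (7 higher, 3 lower) stayed between 9 and 14 under half-minimum background, scanner log ratios, median centring, either filter on dim probes, both other probe rules, outlier or saturation handling, the authors' table and a fit of 6 arrays with a random culture block, where all features passing ranged from 2003 to 2496. It fell to 5 with a trended, robust variance (1477 of all features), to 3 at adjusted p under 0.01 (933 of all features) and to 1 when a 2-fold change was also required (317 of all features). With no replicate block, ignoring the pairing of RNAs within a culture, limma called 0 members (8 at unadjusted p under 0.05) and 244 features. Leaving out 1 culture gave 0 to 32 members and 818 to 5154 features, the lowest without culture 3 and the highest without culture 1. Arrays with epithelial RNA in Cy3 alone called 30 members (8 higher, 22 lower) and 7076 features, and those with it in Cy5 alone 28 (25 higher, 3 lower) and 5879 features. These single-orientation fits keep the dye effect. Across the 66 members the 2 orientations had means of opposite sign in 45, among the called ones in Ube2v1 and Ube2v2. Among members named in full, those whose sign turned with a call in either fit were, under the first, Psma1 (-0.86), Psma4 (-0.69), Ube2v2 (-0.69), Ube2e3 (-0.78), Ube2v1 (-0.14) and Ube3a (-0.76), and under the second for Uchl5 (1.15) and Ube2e1 (1.11). The median of the proteasome genes stayed between 0.07 and 0.25 in all settings run. The fit without saturated spots, which gave 0.25, held fewer of the 29 genes. A block for slide or scan date was not run, since none was found that holds part of the cultures. Scaling of the ratios between arrays was not run either.

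With 3 cultures, a missed threshold does not show that a gene stayed level. Saturation bounds the brightest subunits, and 18.5% to 81.5% of negative control spots carried the well-above-background flag, so dim members cannot be told from background by it.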
